A study of Rattus norvegicus with 6 samples.

Results

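The renin-angiotensin genes Agt, Ace, Agtr1a, Agtr1b, Enpep, Mme, Atp6ap2 and Mas1 were examined in the renal cortex of rats given o-nitroanisole and of rats given its vehicle. Members were the probes whose RefSeq accession maps to 1 of these 8 genes. Of 61657 non-control probes on each array, 12 matched, and they stand for 7 of the 8 genes. No probe was matched to Atp6ap2, an accessory subunit of the vacuolar proton pump, so it was not analysed here. The o-nitroanisole group was 3 male Sprague-Dawley rats dosed at 400 mg/kg/day for 4 weeks, and the corn oil group was 3 male rats of the same strain given corn oil for 4 weeks. All rats were 5 weeks old when bought, and no genetic alteration or second agent is named in the labels. o-Nitroanisole, or 2-methoxynitrobenzene, is a nitroaromatic intermediate of dye manufacture. Total RNA of each rat was hybridised to its own one-colour Agilent oligonucleotide array.

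The renin-angiotensin system is a proteolytic cascade. Angiotensinogen, the Agt product, is cut to angiotensin I, which angiotensin-converting enzyme (Ace) trims to the active angiotensin II. Aminopeptidase A (Enpep) and neprilysin (Mme) break these peptides down or divert them to other fragments, and the peptides act through the type 1 receptors Agtr1a and Agtr1b, while angiotensin-(1-7) acts through Mas1. In the kidney, angiotensinogen is made in the proximal tubule beside that delivered from the liver, and the peptidases line the proximal brush border and, for Enpep and Mme, the podocyte. The cascade constricts glomerular arterioles and promotes sodium reabsorption.

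The values given below as relative signal are the processed signal of a probe divided by the 75th percentile of the processed signal on its array. That percentile was 905 to 1041 units. Each array read 66.4% to 71.5% of its probes well above background, and no probe was saturated. All o-nitroanisole arrays lay on slide 2 and all corn oil arrays on slide 1, scanned apart as well, so slide and treatment cannot be told apart in any comparison here. The 11 proximal tubule markers and the 9 podocyte markers examined were well above background on all 6 arrays, as the label of renal cortex calls for. Of 6 adrenal cortex markers, Cyp11b1, Cyp11b2 and Star did not stand well above background on a single array, whereas Cyp17a1, Cyp21a1 and Hsd3b1 did on all 6.

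At the brightest probe of each gene, transcripts of the precursor Agt and of the member peptidases Ace, Enpep and Mme lay lower in o-nitroanisole cortex. Agt averaged 0.364 times its corn oil level, Mme 0.559 times, Ace 0.670 times and Enpep 0.788 times. Of the receptors, Agtr1a averaged 0.790 times its corn oil level, whereas the groups overlapped for Agtr1b and Mas1. None of the 7 genes passed an adjusted p of 0.05 in the limma fit over 32428 features, in which 0% of all features passed with a minimum adjusted p of 0.0711. When p was left unadjusted and held under 0.05, 5 members were lower and 0 higher, where 7.12% of all features were lower and 11.8% higher. For the same 5 genes every o-nitroanisole array lay below every corn oil array, against 9.56% of all features, and 0 lay above throughout, against 17.6%. An exact permutation test of 3 rats against 3 cannot give a two-sided p below 0.10. Mas1 entered the test only because it was well above background on all o-nitroanisole arrays, and the other 6 tested members were well above background on all 6 arrays.

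**Figure D1:**
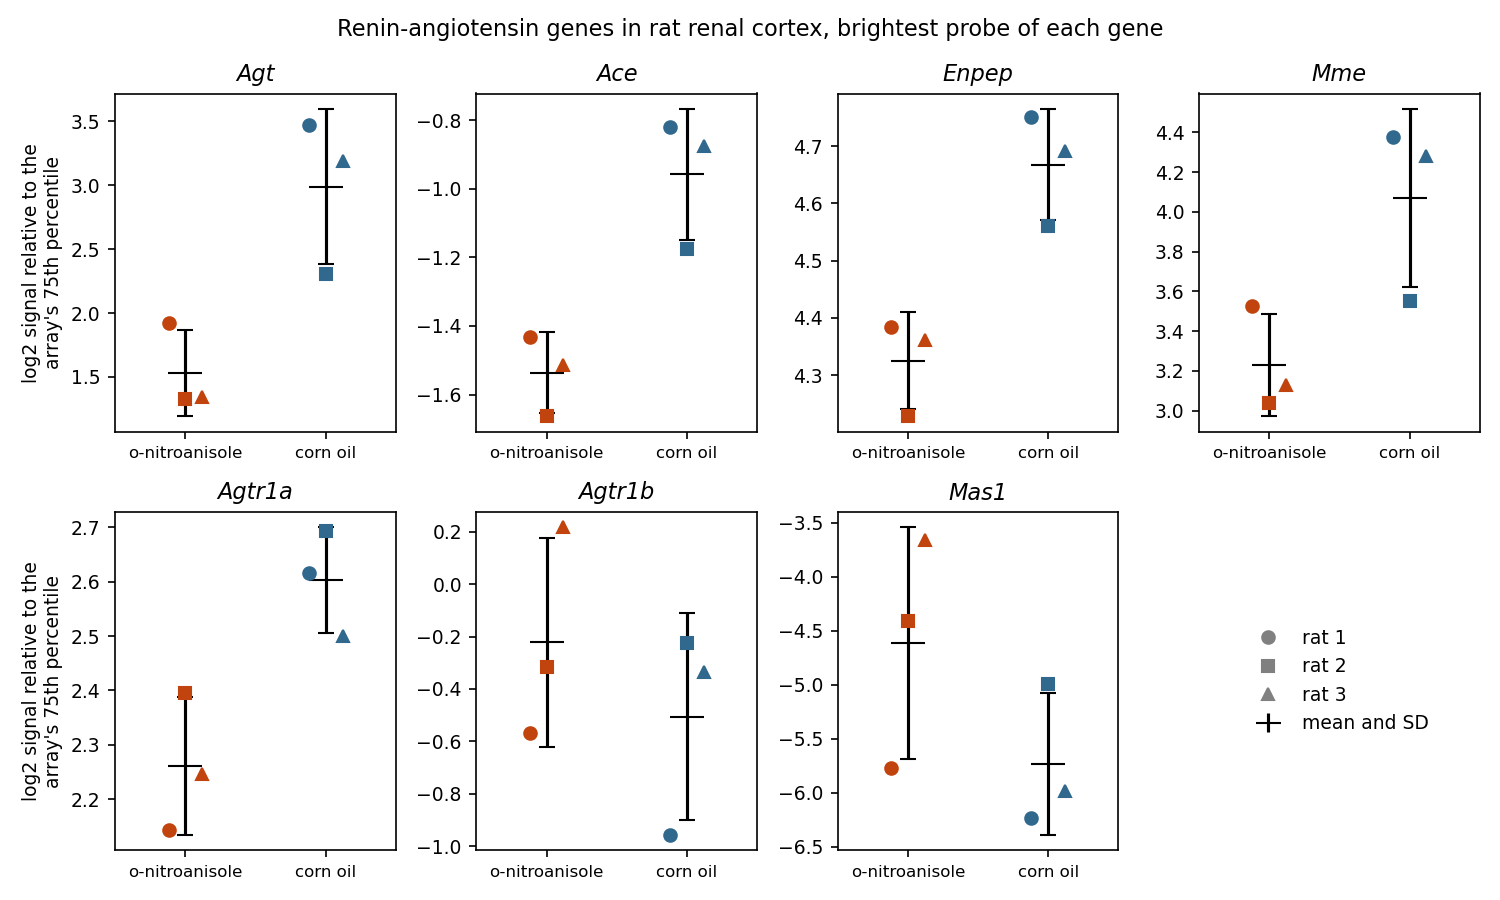
Log2 signal relative to the array's 75th percentile (y axis, a separate scale per gene) in each o-nitroanisole rat and each corn oil rat, for the brightest probe of each of 7 renin-angiotensin genes. Points are rats, and bars are the mean and SD of 3 rats. Groups are apart for Agt, Ace, Enpep, Mme and Agtr1a and overlap for Agtr1b and Mas1.

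Agt showed the largest difference among the 5 members whose groups were apart. Its brightest probe gave relative signals of 3.79, 2.52 and 2.53 in o-nitroanisole rats 1 to 3, against 11.1, 4.95 and 9.15 in corn oil rats 1 to 3. The lowest corn oil rat, rat 2, was still above the highest o-nitroanisole rat. The log2 difference, o-nitroanisole minus corn oil, was -1.46 ± 0.34 (SE, n = 3 per group, limma adjusted p = 0.136). Its unadjusted 95% interval ran from -2.30 to -0.62. The second Agt probe gave a log2 difference of -1.34 ± 0.35, with signals of 1.93, 1.24 and 1.20 in o-nitroanisole rats and 5.12, 2.25 and 4.11 in corn oil rats, so that both probes ordered the rats of the corn oil group alike. The array measures bulk cortex, in which fewer cells of a type and less RNA per cell cannot be told apart.

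Ace, which makes angiotensin II and also inactivates bradykinin, had relative signals of 0.371, 0.316 and 0.350 in o-nitroanisole rats, against 0.566, 0.443 and 0.545 in corn oil rats. The groups did not overlap, and the log2 difference was -0.58 ± 0.12 (adjusted p = 0.122). Its 2 dimmer probes gave larger differences, -1.03 ± 0.15 and -1.03 ± 0.23. The probe A_64_P010531 lay at 0.0712, 0.0548 and 0.0592 in o-nitroanisole rats and at 0.137, 0.105 and 0.135 in corn oil rats. Taken per probe, Ace lay between 0.489 and 0.670 times its corn oil level, and all 3 probes separated the groups.

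Enpep, which removes the N-terminal residue of angiotensin II to give angiotensin III, had a small difference with little spread. Its brightest probe gave 20.9, 18.7 and 20.6 in o-nitroanisole rats, against 26.9, 23.6 and 25.9 in corn oil rats, a log2 difference of -0.34 ± 0.08 (adjusted p = 0.138). The other probe gave 1.86, 1.52 and 1.72 in o-nitroanisole rats and 1.92, 1.82 and 1.86 in corn oil rats. Those groups overlapped, with o-nitroanisole rat 1 above corn oil rat 2, and the log2 difference was -0.14 ± 0.09 (adjusted p = 0.460 over all probes), so the separation seen for Enpep held for 1 of its 2 probes.

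Mme, the brush border endopeptidase that turns angiotensin I into angiotensin-(1-7) and degrades natriuretic peptides, was read by a single probe. Its relative signals were 11.5, 8.22 and 8.75 in o-nitroanisole rats, against 20.7, 11.7 and 19.4 in corn oil rats. The log2 difference was -0.84 ± 0.25 (adjusted p = 0.180). The groups were barely apart, with 0.03 log2 units between the highest o-nitroanisole rat and corn oil rat 2.

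Agtr1a, the main type 1 receptor of the rodent kidney, gave 4.42, 5.26 and 4.74 in o-nitroanisole rats, against 6.13, 6.47 and 5.65 in corn oil rats. The groups were apart by 0.10 log2 units, and the log2 difference was -0.34 ± 0.09 (adjusted p = 0.158). The pattern within the groups was not that of the peptidases, since corn oil rat 2 was the highest of its group for Agtr1a.

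Agtr1b, the second rodent type 1 receptor gene, had 2 probes of opposite sign. The brighter probe gave 0.675, 0.802 and 1.16 in o-nitroanisole rats, against 0.515, 0.857 and 0.792 in corn oil rats, a log2 difference of 0.28 ± 0.28 (adjusted p = 0.614) with overlapping groups and an unadjusted 95% interval from -0.40 to 0.96. The dimmer probe gave 0.0620, 0.0854 and 0.0635 in o-nitroanisole rats, against 0.0855, 0.111 and 0.0847 in corn oil rats, a log2 difference of -0.42 ± 0.17 (adjusted p = 0.265 over all probes), and o-nitroanisole rat 2 lay above corn oil rat 3. No direction can be given for Agtr1b. Agtr1a and Agtr1b are closely similar in coding sequence, and whether either probe also binds transcripts of the other gene was not tested.

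Mas1, the receptor of angiotensin-(1-7), was close to background. It gave 0.0183, 0.0469 and 0.0794 in o-nitroanisole rats, against 0.0133, 0.0315 and 0.0159 in corn oil rats, and it was well above background on 3 of 3 o-nitroanisole arrays and on 1 of 3 corn oil arrays. The groups overlapped. The log2 difference of 1.12 ± 0.61 (adjusted p = 0.382) had the widest error of the 7 genes, with an unadjusted 95% interval from -0.38 to 2.62.

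**Figure D2:**
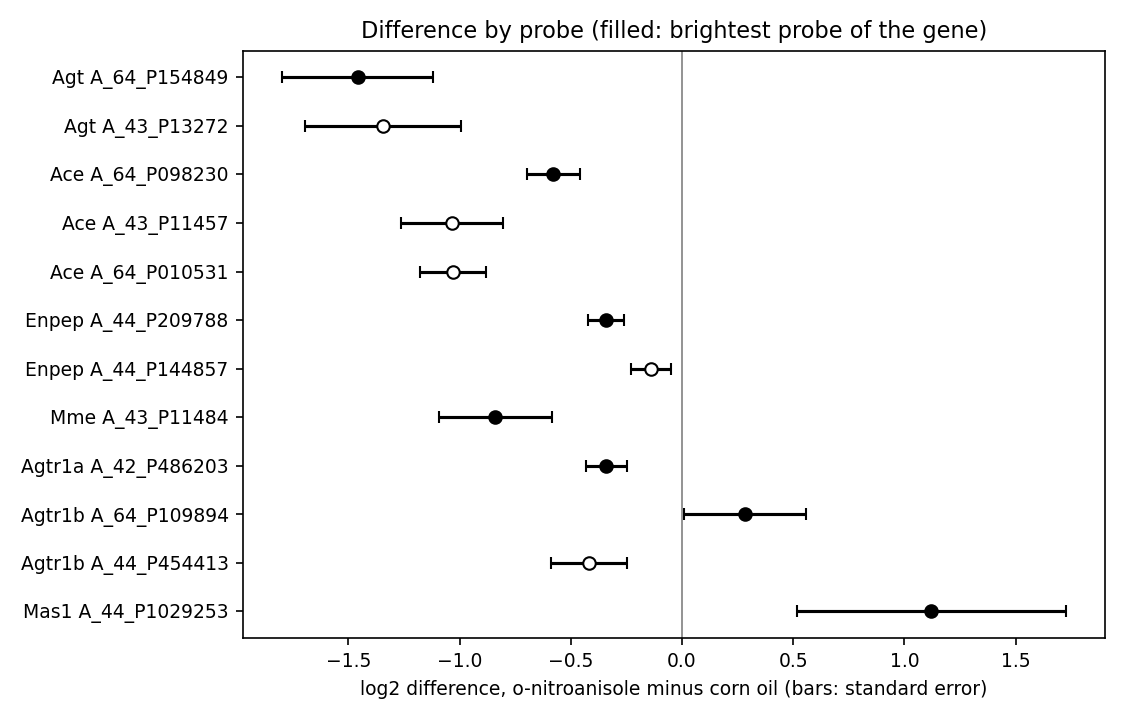
Log2 difference, o-nitroanisole minus corn oil (x axis), for each of the 12 probes of the 7 genes, with the limma standard error as bars. Filled points are the brightest probe of each gene. The probes of Agt and Ace lie on the negative side together, whereas those of Agtr1b lie at 0.28 and -0.42.

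Promoters of the members whose groups were apart are given for Ace, Mme, Enpep and Agtr1a, because these genes lay lower together. Sequences are RefSeq's on build GRCr8, from 250 bases before to 50 bases after the gene start, and 7 of the 8 genes matched that table by symbol, Agt not among them. The Ace window is chr10:91409879-91410178 on the plus strand, the Mme window chr2:149872247-149872546 on the plus strand, the Enpep window chr2:220526169-220526468 on the minus strand and the Agtr1a window chr17:34435383-34435682 on the minus strand. Capitals mark matches on either strand to any of 4 motifs. The TATA box was searched as TATAAA. Part of the site of the HNF1 factors, which act in the proximal tubule, was searched as GTTAAT. The core bound by the aryl hydrocarbon receptor was searched as GCGTG. The GC box was searched as GGGCGG. Overlapping matches were each counted.
Ace: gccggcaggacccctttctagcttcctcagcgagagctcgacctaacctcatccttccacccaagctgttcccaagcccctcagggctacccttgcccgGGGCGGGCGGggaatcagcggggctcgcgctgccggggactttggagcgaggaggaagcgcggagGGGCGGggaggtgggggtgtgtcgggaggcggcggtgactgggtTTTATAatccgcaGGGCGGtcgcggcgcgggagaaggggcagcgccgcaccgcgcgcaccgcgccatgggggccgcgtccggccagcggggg
Mme: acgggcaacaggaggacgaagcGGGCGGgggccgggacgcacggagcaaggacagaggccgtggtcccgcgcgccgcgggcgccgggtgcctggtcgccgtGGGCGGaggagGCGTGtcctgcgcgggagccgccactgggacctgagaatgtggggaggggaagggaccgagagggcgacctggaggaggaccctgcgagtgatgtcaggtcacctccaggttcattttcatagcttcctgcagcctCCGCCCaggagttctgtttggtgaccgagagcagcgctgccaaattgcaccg
Enpep: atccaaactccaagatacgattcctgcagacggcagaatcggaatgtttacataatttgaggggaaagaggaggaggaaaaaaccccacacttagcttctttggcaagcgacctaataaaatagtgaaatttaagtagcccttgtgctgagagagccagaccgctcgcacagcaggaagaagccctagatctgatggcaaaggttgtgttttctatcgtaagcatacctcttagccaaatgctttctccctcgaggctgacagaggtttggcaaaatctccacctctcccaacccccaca
Agtr1a: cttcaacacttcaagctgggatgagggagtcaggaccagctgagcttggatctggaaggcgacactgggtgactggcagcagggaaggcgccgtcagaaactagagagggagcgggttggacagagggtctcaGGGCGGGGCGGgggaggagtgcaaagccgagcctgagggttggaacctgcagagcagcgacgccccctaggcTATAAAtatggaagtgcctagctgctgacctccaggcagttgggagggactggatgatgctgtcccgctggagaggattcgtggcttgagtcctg

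No motif of the 4 was present in all 4 printed windows. A TATAAA match was found in 2 of the 7 member windows, Ace and Agtr1a, starting 42 and 45 bases before the gene start, against 14.2% of 33469 promoters of the same length. GGGCGG was found in 4 of the 7, with 4 matches in Ace, 3 in Mme and 2 each in Agtr1a and Atp6ap2, against 33.1% of all promoters. In Ace and in Agtr1a a pair of these matches overlaps. GCGTG was found in Mme alone, against 29.7% of all promoters, and GTTAAT in 0 of the 7, against 7.45%. The Enpep window held no match to any of the 4 motifs, and its GC content was 47.0%, against 72.3% for Ace, 68.7% for Mme and 60.7% for Agtr1a.

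Genes that act on the juxtaglomerular cells, with Akr1b7 as a marker of these cells, were followed as the upstream side of the cascade. Of 7 such genes listed, 5 were tested and 0 passed, with 1 higher and 0 lower at an unadjusted p under 0.05 and a median log2 difference of 0.26, against 0.03 over all features. At that unadjusted p, 7.12% of all features were lower and 11.8% higher, and the list counts below are to be read beside these shares. Ptgs2, the prostaglandin synthase of the macula densa, gave 0.0458, 0.0671 and 0.0596 in o-nitroanisole rats, against 0.0386, 0.0372 and 0.0486 in corn oil rats. The groups overlapped, and the log2 difference was 0.46 ± 0.18 (adjusted p = 0.243). Casr, the calcium-sensing receptor, gave 10.4, 13.9 and 14.5 in o-nitroanisole rats, against 15.0, 15.5 and 16.3 in corn oil rats, a log2 difference of -0.29 ± 0.14 (adjusted p = 0.335). Its dimmer probe gave -0.19 ± 0.20 (adjusted p = 0.638 over all probes), with o-nitroanisole rat 3 above every corn oil rat. Neither Nos1 nor Akr1b7 stood well above background on a single array.

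With limma's trend and robust options, which called 1.61% of all features, the adjusted p of the members ranged from 0.0599 for Enpep to 0.607 for Agtr1b. Anpep, aminopeptidase N of the brush border, was added after its values were seen: it gave 15.5, 12.7 and 13.3 in o-nitroanisole rats, against 16.6, 25.3 and 27.7 in corn oil rats, a log2 difference of -0.72 ± 0.21 (adjusted p = 0.172). Ctsa, a lysosomal carboxypeptidase, lay higher, at 324, 350 and 359 in o-nitroanisole rats and 286, 299 and 276 in corn oil rats, a log2 difference of 0.26 ± 0.07 (adjusted p = 0.154).

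Among the 8 tested of 12 other angiotensin peptidases, 1 was lower and 2 higher at an unadjusted p under 0.05, and the median log2 difference was -0.06. The oligopeptidase genes Thop1, at -0.11 ± 0.09 (adjusted p = 0.529), and Nln, at -0.00 ± 0.07 (adjusted p = 0.985), had overlapping groups. The mast cell and neutrophil proteases Cma1, Cpa3 and Ctsg lacked a signal well above background throughout. Of 10 receptors and receptor partners, 9 were tested and none was under an unadjusted p of 0.05, with a median of -0.03. Neither probe of the type 2 receptor Agtr2 stood well above background on a single array, and no fold is given for it. Agtrap, which binds the type 1 receptor and promotes its internalisation, gave 19.2, 18.7 and 21.4 in o-nitroanisole rats, against 20.05, 19.5 and 18.8 in corn oil rats, a log2 difference of 0.02 ± 0.08. Its sign turned under quantile normalisation, to -0.0663. The G protein subunit Gnaq, at -0.17 ± 0.12 (adjusted p = 0.481), and Rgs2, which dampens receptor signalling, at -0.19 ± 0.17 (adjusted p = 0.593), had the smallest unadjusted p of that list. The other Gnaq probe, about as dim, gave 0.20 ± 0.17, so no direction can be given for Gnaq.

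**Figure D3:**
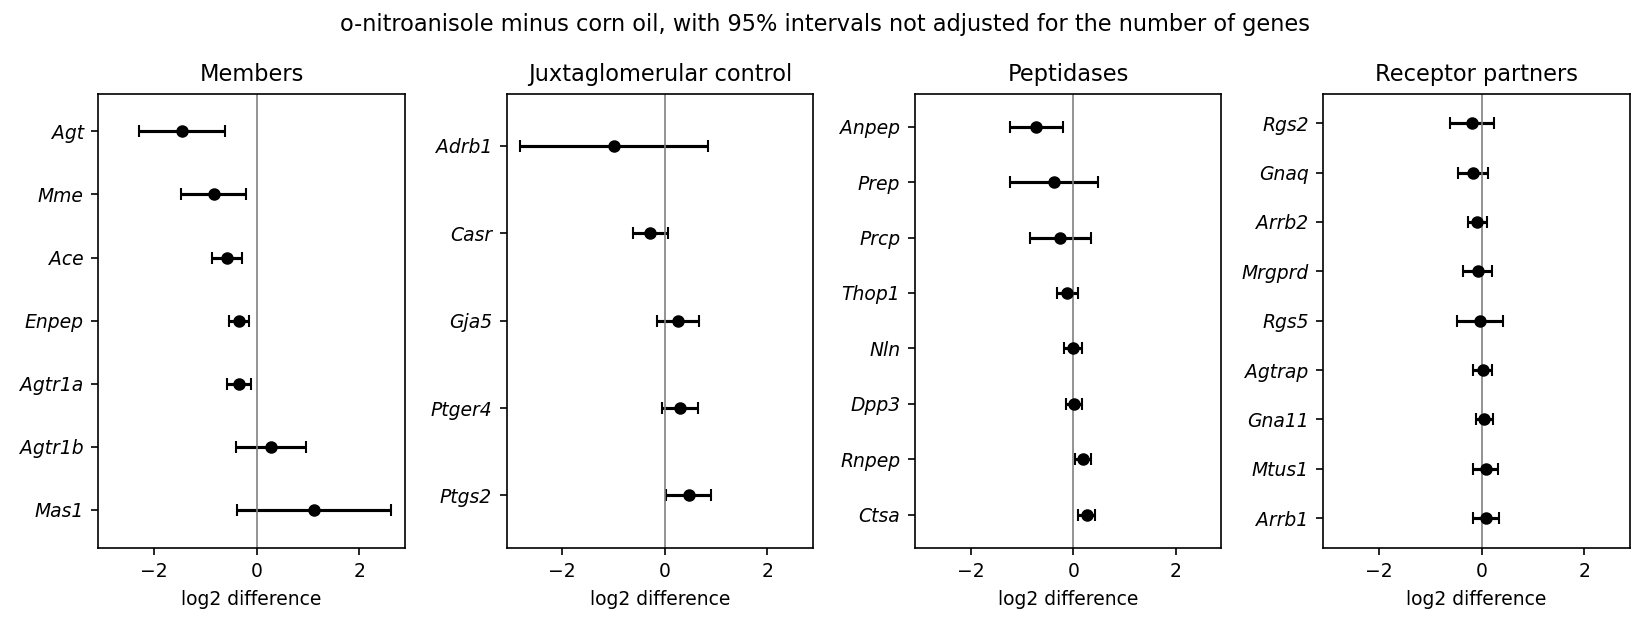
Log2 differences, o-nitroanisole minus corn oil (x axis, the same scale in each panel), with 95% intervals of the limma fit that are not adjusted for the number of genes. Panels hold the members, juxtaglomerular control, other angiotensin peptidases, and receptor partners. Agt lies farthest to the negative side among the intervals that leave out 0, at -1.46, and the receptor partners all span 0.

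Kinin genes, which share Ace and Mme as inactivating enzymes, had a median of 0.58 over 5 tested genes, and 1 was under an unadjusted p of 0.05. This was Klk1, the kallikrein that releases kinin, at 133, 178 and 185 in o-nitroanisole rats, against 90.9, 109 and 134 in corn oil rats (log2 difference 0.58 ± 0.19, adjusted p = 0.204). Its groups overlapped, with o-nitroanisole rat 1 just below corn oil rat 3, and the list median is its own value. The receptor genes Bdkrb1, at 0.03 ± 0.31, and Bdkrb2, at 0.04 ± 0.13, had overlapping groups. The kininogen gene Kng2 gave 0.794, 0.317 and 0.860 in o-nitroanisole rats, against 0.130, 0.113 and 1.31 in corn oil rats. Corn oil rat 3 exceeded every o-nitroanisole rat there, and the log2 difference of 1.16 had a standard error of 1.03. The brush border holds other ectoenzymes besides these peptidases, and 10 of them were tested for comparison. At an unadjusted p under 0.05, 3 were lower and 0 higher, where 7.12% of all features were lower and 11.8% higher, and the median was -0.13. Mep1b, the beta subunit of meprin, lay at -0.94 ± 0.26 (adjusted p = 0.161) and Mep1a, the alpha subunit, at -0.36 ± 0.13 (adjusted p = 0.226). The dimmer Mep1a probe gave -0.24 ± 0.13 (adjusted p = 0.387 over all probes), with overlapping groups.

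Agt, Ace, Mme and Enpep also varied alike within the groups. For each of these 4 genes corn oil rat 2 was the lowest of its group and corn oil rat 1 the highest, and o-nitroanisole rat 1 was the highest of its group. Corn oil rat 2 lay 0.68 log2 below its group mean for Agt, 0.52 below for Mme, 0.22 below for Ace and 0.11 below for Enpep, so the sizes ran in the same order as the treatment differences of these 4 genes. Slc7a12 and Slc7a13, described below, did not follow that relation. Corn oil rat 2 lay 0.29 and 0.45 below their group means, with treatment differences of -1.86 and -1.41. The brush border peptidase Anpep had another order in the corn oil group, with rat 1 the lowest, at -0.45 from the group mean, and rat 3 the highest, at 0.29. The order of the 4 members was not particular to them, since the brightest probes of Mep1b, Ggt1, Alpl, Dpp4 and Lrp2 had it too. That of Dpp4 had it with a log2 difference of 0.20, opposite in sign to the 4 members. The order did not hold for every probe of these genes. The dimmer Lrp2 probe had corn oil rat 1 lowest. The dimmest Dpp4 probe had corn oil rat 2 highest, with a log2 difference of -0.12. Mep1a and Xpnpep2 of the same brush border list had other orders. The share of all features with this order was not counted. These are 3 rats a group, and the common order is a description with no test. Without corn oil rat 2 the log2 difference of Agt was -1.80, and without corn oil rat 1 it was -1.22.

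Markers of other compartments were read beside these genes. The straight segment (S3) of the proximal tubule was followed through 7 markers other than Agt. Of these, 3 were lower and 1 higher at an unadjusted p under 0.05, and the median was -0.49. The amino acid transporter genes Slc7a13 at -1.41 ± 0.33 and Slc7a12 at -1.86 ± 0.20, and the organic anion transporter gene Slc22a7 at -0.94 ± 0.13, were the lower ones. The limma adjusted p was 0.138 for Slc7a13, 0.0713 for Slc7a12 and 0.0880 for Slc22a7. With trend and robust options it was 0.0915, 0.0248 and 0.0328. Corn oil rat 2 was the lowest of its group for Slc7a13 and Slc7a12, as for Agt, but corn oil rat 3 was the lowest for Slc22a7. The summed relative signal of the 7 S3 markers lay between 505 and 600 in o-nitroanisole arrays and between 517 and 606 in corn oil arrays. Most of that sum came from a pair of bright probes, those of Acy3, at a mean of 252 in o-nitroanisole arrays and 202 in corn oil arrays, and of Napsa, at 217 in o-nitroanisole arrays and 209 in corn oil arrays. The log2 difference was negative for the other 5 markers. For the 11 general proximal tubule markers the summed signal lay between 2078 and 2138 in o-nitroanisole arrays and between 1987 and 2039 in corn oil arrays, with 4 markers higher and 1 lower at an unadjusted p under 0.05 and a median log2 difference of 0.20. The part of S3 transcripts in the lower Agt and peptidase values was not tested.

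Podocyte markers had a median of 0.04 over 9 genes, with 1 higher and 1 lower at an unadjusted p under 0.05, and their summed signal was 43.8 to 50.8 in o-nitroanisole arrays and 41.5 to 47.6 in corn oil arrays. Vascular smooth muscle and pericyte markers had a median of 0.08 over 7 genes, with a summed signal of 19.4 to 21.4 in o-nitroanisole arrays and 19.0 to 19.7 in corn oil arrays. Mesangial markers had a median of 0.02 over 7 genes and endothelial markers one of 0.08 over 8. Of the juxtaglomerular markers, Rgs5 lay at -0.03 ± 0.18 and Robo1 at -0.09 ± 0.13. At an unadjusted p under 0.05, 6 of 6 red blood cell markers were higher, with a summed signal of 669 to 818 in o-nitroanisole arrays and 429 to 499 in corn oil arrays. Of 8 collecting duct markers, 5 were higher and 0 lower by the same measure, with a median of 0.28, among them Slc4a1 at 0.67 ± 0.17, which the red blood cell list also holds, and Foxi1 at 0.42 ± 0.11. Of 4 loop of Henle and macula densa markers, 1 was higher and 2 lower, with a median of -0.17. Macrophage and neutrophil markers had a median of -0.02 over 6 genes whose members went different ways. The neutrophil genes S100a8, at 1.76 ± 0.27 (adjusted p = 0.0961, or 0.0415 with trend and robust options), and S100a9, at 1.15 ± 0.19 (adjusted p = 0.103, or 0.0444), lay higher with groups apart, and the other 4 lay between -0.21 and -0.01 with groups overlapping. With trend and robust options 3 red blood cell markers and 2 general proximal tubule markers also passed as higher, and 2 S3 markers as lower. Of the 3 adrenal markers tested, with a median of -0.47, Cyp21a1 lay lower with groups apart, at -0.69 ± 0.16 (adjusted p = 0.131). The part of these cell types in the members' values was not tested.

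**Figure D4:**
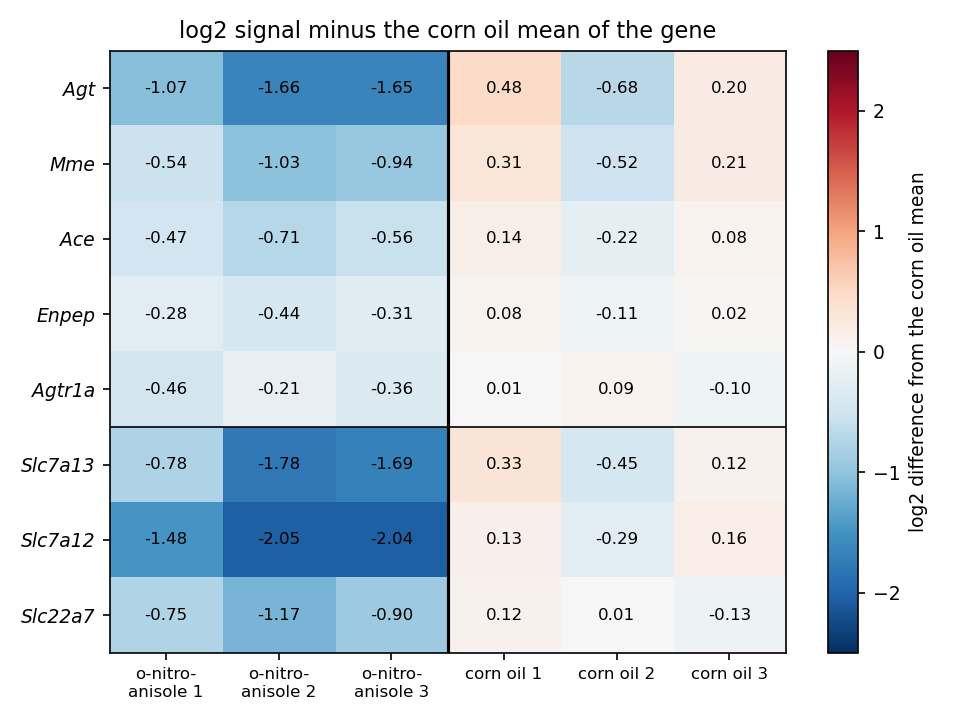
Log2 signal of each array minus the corn oil mean of the gene (colour and printed value), with o-nitroanisole rats in the left 3 columns and corn oil rats in the right 3. Rows are 5 members, then 3 markers of the straight proximal tubule. For Agt the o-nitroanisole rats lie at -1.07, -1.66 and -1.65, against 0.48, -0.68 and 0.20 in the corn oil rats.

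The genes most like each member were sought among 11801 other symbol-bearing genes, by the root mean square difference of log2 values centred on each gene's mean over the 6 arrays. For Agt they were Dhrs7l1, at 0.08 log2 units, and Slco1a5, an organic anion transporter gene, at 0.09. Slco1a5 gave 1.31, 0.813 and 0.945 in o-nitroanisole rats, against 3.48, 1.75 and 3.39 in corn oil rats, a log2 difference of -1.45 ± 0.32. That this lies near the difference of Agt follows from choosing Slco1a5 by its likeness over the same 6 arrays. For Mme they were Sec16b at 0.04 and Scn8a at 0.07, for Ace Ncbp2 and Nap1l3, both at 0.04, and for Enpep Steap3 and Eif1ax, both at 0.04. For Agtr1a, Gab2 and Or10d5 were nearest at 0.05. The distances were larger for Agtr1b, with Apobec3 at 0.10 and Wdhd1 at 0.13, and largest for Mas1, with Cd180 at 0.30 and Camk2b at 0.35.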

How the data were processed

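Per the file headers, the authors' scanner files hold spot intensities from one-colour Agilent arrays, with a processed signal that is background-subtracted and unscaled between arrays. The submitters' processing notes name Feature Extraction 10.7. In the deposited value table each entry is a ratio of processed signal to the array's 75th percentile, as found by comparison with the scanner files. Its columns matched them within 1%, but in the vehicle group under other replicate numbers (3 of 3 columns), which leaves the numbering of these rats unsettled. Rats are numbered here by the scanner files.

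The authors' deposited intensities were scaled by the 75th percentile and converted to log2, outlier spots were set to missing, and 84 spike-in probes were left out. Probes were named through their RefSeq accession using RefSeq genes of GRCr8 (27460 of 61657 probes). The array headers name another build, so gene coordinates are not given, apart from those of the printed promoter windows. A probe was tested if 1 group or both had it well above background throughout, and a gene was its brightest tested probe. Features with and without a symbol, 32428 in all, were fitted by lmFit and eBayes of limma 3.58.1 (R 4.3.3) and adjusted by Benjamini-Hochberg over all features, those of single probes over all tested probes. Differences are o-nitroanisole minus corn oil. Tables, intervals and plots used Python 3.11.15, numpy 2.4.6, pandas 2.3.3, scipy 1.17.1 and matplotlib 3.10.9. The fit was tested on simulated data.

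The members and gene lists were chosen with earlier results of these data known. All members were named. Of each pathway list, genes past the threshold were named, or otherwise the 2 with the smallest p, and Agtr2 and Agtrap in any case. Some genes of the pathway are not reported here, and list counts leave them out. Further list genes given with values, with Anpep and Casr, were chosen after their values were seen. Alternatives covered background correction, scaling, moderation, dim and outlier filters, probe choice, array weights, the value table, the replicate block and leaving out each rat. Normexp used the median signal, since the files as read give no mean signal. With 3 arrays per group, precision is limited by their number.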

Additional observations from a re-analysis of the deposited data

How the results depend on the processing

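None of the 7 tested renin-angiotensin genes passed the threshold under any setting run. The count over all features, 0 with limma's defaults (6142 at an unadjusted p under 0.05), was 115 with normexp background correction and 522 with trend and robust options, and ranged from 0 to 4 on leaving out each rat, the 4 without corn oil replicate 3. The cause was not tested. Of 37 other pathway genes, 0 passed in every setting run with limma. With its defaults 4 were higher and 4 lower at an unadjusted p under 0.05, where 11.8% of all features were higher and 7.12% lower. Agt, Ace, Enpep, Mme and Agtr1a kept a negative difference in every setting. On leaving out each rat Agt ranged from -1.80 to -1.22, Mme from -1.10 to -0.69, Ace from -0.69 to -0.51, Enpep from -0.40 to -0.29, Agtr1a from -0.41 to -0.28, Agtr1b from 0.06 to 0.46 and Mas1 from 0.64 to 1.70. Genes with several probes and dim genes depended on the setting: Agtr1b was -0.068 as the mean of its probes and -0.42 at its dimmer probe, Ace -0.88 as the mean of its probes, and Mas1 0.39 with normexp, whose offset of 50 draws dim probes toward no difference by construction. Agtrap was -0.0663 with quantile normalisation and ranged from -0.0369 to 0.0596 on leaving out each rat. The replicate block called 0 features, 0 members and 0 other pathway genes, with the scanner files' numbers and with those of the value table, the latter added after seeing the data; deviations of same-numbered rats correlated at 0.091, 0.059 and 0.026, so the numbers are not shown to pair rats. A slide block was not run, because each slide carried a single group.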
